A study of Mus musculus with 4 samples.

Results

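The respiratory chain subunits that are encoded in the nucleus were followed in ribosome-protected RNA of primary mouse myoblasts. The members were the protein-coding genes of the deposited table whose symbols begin with Ndufa, Ndufb, Ndufc, Ndufs or Ndufv and a number (complex I), the genes Sdha to Sdhd (complex II), the Uqcr genes and Cyc1 (complex III), the nuclear Cox genes of subunits 4 to 8 (complex IV) and the Atp5 genes (complex V). This rule took 86 of 55573 genes, or 86 of 21900 protein-coding genes, and used no measured value. Complex I had 37 members, complex II had 4, complex III had 9, complex IV had 18 and complex V had 18. A few matched genes are not canonical subunits of the complex whose name they carry: Ndufa4 is now assigned to complex IV, Ndufa4l2 is its paralog, and Cox7a2l is a factor that joins complexes III and IV.

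The study measured what eIF5A, a translation factor modified with hypusine, does in muscle stem cells. The 4 libraries came from primary myoblasts on day 2 of proliferation, grown from hind-limb muscle of 3-week-old mice in medium with serum and 10 µg/ml FGF. Of these, 2 were labelled wild type (WT) and 2 were labelled eIF5A knockout (KO), and the ribosomes of all 4 were held with cycloheximide before RNase I digestion. The study's knockout is a tamoxifen-induced deletion of floxed eIF5A by Pax7 CreERT2, which acts in Pax7-expressing satellite cells, so that other cells in a culture keep the gene. The labels give the control as wild type only, and name neither the animals nor the cultures behind each library, so the p-values below measure the spread between these libraries, which may be technical.

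The respiratory chain passes electrons from NADH, through complex I, or from succinate, through complex II, by way of ubiquinone to complex III, cytochrome c and complex IV, and complexes I, III and IV pump protons across the inner mitochondrial membrane. Complex V, the ATP synthase, lets the protons flow back and makes ATP. All complexes except complex II also hold subunits made from mitochondrial DNA on mitochondrial ribosomes, whereas the genes described here are read by cytosolic ribosomes, the ones that eIF5A serves. Proliferating myoblasts rely largely on glycolysis, and oxidative capacity increases as they differentiate into muscle fibres.

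The coding sequences of the members share features that the naming rule did not use. They were short, with a median of 402 coding bases against 1194 over 21408 protein-coding genes with a complete annotated coding sequence in GENCODE M21, and 75.3% of the 85 members with such a sequence had fewer than 600 coding bases, against 15.1% of all. eIF5A is best known for helping ribosomes through runs of proline codons. Runs of at least 3 consecutive prolines occurred in 7 of the 85 members (8.24%) and in 20.1% of all protein-coding genes. Of the 7 members, 6 belong to complex I, and the other is Cox6b2, which had no read. The runs of 5 complex I members are printed below on the coding strand, 5′ to 3′, with the proline codons in capitals, 9 coding bases to each side and the GRCm38 (mm10) position of the capitals, each of which lies within a coding exon.
Ndufs5 (chr4:123712855-123712863, minus strand): aaatacaccCCTCCACCTcaccattcg
Ndufa7 (chr17:33829674-33829682, plus strand): cggacccagCCACCTCCGaaactcccc
Ndufv3 (chr17:31527378-31527386, plus strand): aaaaactcaCCTCCACCCagttcttac
Ndufa13 (chr8:69901597-69901605, minus strand): caggacatgCCCCCGCCAgggggctac
Ndufc2 (chr7:97400252-97400260, plus strand): cggagcctgCCCCCGCCCaagctgaac

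A second shared feature lies at the start codon. The letters ATGGCGGC, counted only where the ATG is the annotated start codon and read on the coding strand, opened the coding sequence of 14 of the 85 members (16.5%) and of 481 of all 21408 (2.25%). Of the 14, 11 were complex I genes, 1 was in complex II and 2 in complex III, and none of the 18 members of complex IV or the 17 of complex V with a complete sequence had them. These letters also form the core of TISU, a start-site context known from mRNAs with short 5′ untranslated regions. The members' annotated 5′ untranslated regions had a median of 104 bases, against 154 over all protein-coding genes. The start sites of 5 core subunits among the 14 are printed with 12 bases before the start codon in lower case, the 8 letters in capitals and the GRCm38 position of the start codon.
Ndufs3 (chr2:90904645-90904647, minus strand): acactaaggaacATGGCGGCggctgca
Ndufs7 (chr10:80249476-80249478, plus strand): gccgaggccaagATGGCGGCgctggcg
Sdhb (chr4:140961405-140961407, plus strand): tcaggagccaaaATGGCGGCgacggtc
Cyc1 (chr15:76343564-76343566, plus strand): aagggggccgacATGGCGGCggcggcg
Uqcrc1 (chr9:108936719-108936721, plus strand): ggaagttagaagATGGCGGCgtccgca

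The libraries were shallow and differed before any member was examined. They held between 642429 and 704006 reads, recovered as whole numbers from the deposited RPKM values (reads per kilobase of gene and per library, by a size the authors set). Protein-coding genes held 269143 and 217651 of these reads in WT and 460099 and 385091 in the KO-labelled libraries. Eif5a, the gene named in the KO label, had 34.9 and 65.2 RPKM in WT and 60.3 and 59.4 RPKM in the KO-labelled libraries, so its level was not lower under that label, and every direction here is that of the libraries so labelled. WT library 1 stood apart in muscle genes: Myog, which drives differentiation, had 82 reads there and 3, 1 and 2 in WT library 2 and KO libraries 1 and 2. The summed RPKM of 14 markers of differentiating muscle was 326.6 and 77.0 in WT and 45.2 and 45.6 under KO. That of 8 myoblast markers was 253.5 and 207.0 against 117.7 and 131.8 and did not overlap between the groups. In the same order, 10 fibroblast markers summed to 644.0, 423.1, 1038.0 and 493.4 RPKM, 7 endothelial markers to 180.1, 267.6, 287.3 and 350.2 RPKM, and 8 immune markers, of which Itgam was at 0 in every library, to 50.6, 64.4, 64.1 and 61.3 RPKM. The endothelial sum was higher in both KO-labelled libraries and the myoblast sum lower. The part of these differences in the values below was not tested, and in such bulk libraries fewer cells of a type and less RNA per cell cannot be told apart.

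The members together took 0.688% of the protein-coding reads in WT library 1 (95% Wilson interval 0.658 to 0.720, 1853 reads), 1.03% in WT library 2 (0.992 to 1.08, 2249 reads), 1.04% in KO library 1 (1.01 to 1.07, 4771 reads) and 1.14% in KO library 2 (1.11 to 1.17, 4388 reads). These intervals cover counting error only. WT library 1 lay below the other 3, the intervals of WT library 2 and KO library 1 overlapped, and KO library 2 lay slightly above both. The summed level of the members was 1847, 3023, 3054 and 3328 RPKM in that order, a mean of 2435 ± 831 (SD, n = 2) in WT and 3191 ± 194 (SD, n = 2) in the KO-labelled libraries. The groups did not overlap, and a two-sided exact permutation test over libraries gave p = 0.333, the lowest that this design of 2 against 2 can reach. Summed as reads per kilobase of coding sequence, the values were 5948 and 10131 in WT against 10086 and 11081, and the groups then overlapped. By single genes, WT library 1 held the lowest level of 56 of the 80 members that entered the test (70.0%), while it was lowest for 32.3% of the 9877 tested protein-coding genes. KO library 2 was the lowest for 7 members and the highest for 31.

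**Figure D1:**
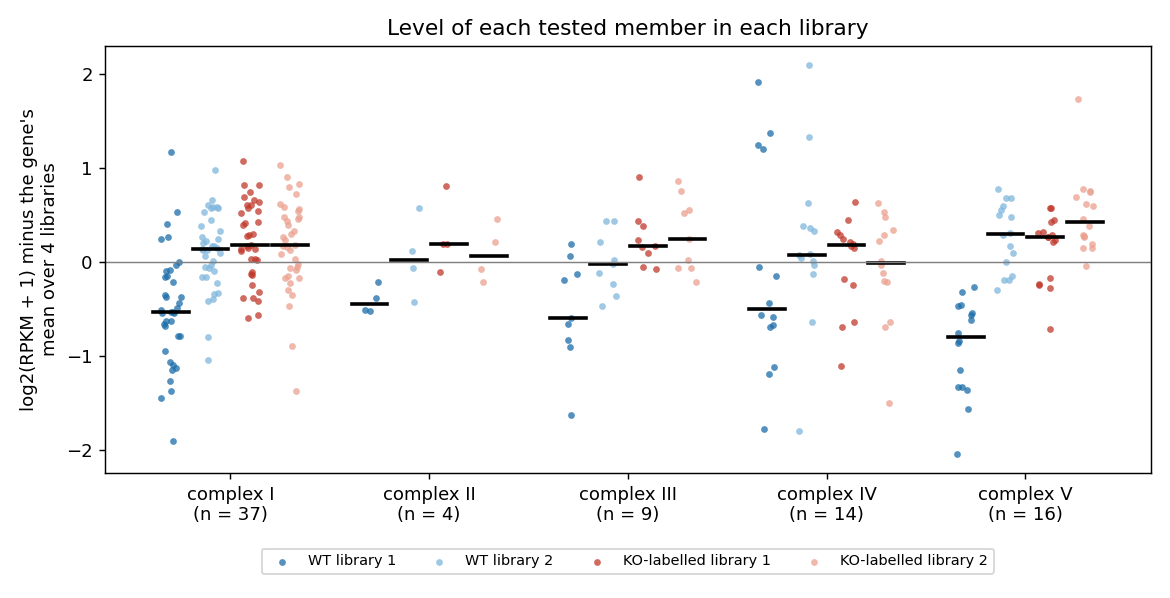
Each point is a tested member, plotted as its log2(RPKM + 1) in 1 library minus its mean over the 4 libraries, by complex, and black bars mark medians. WT library 1 has the lowest median in every complex, from -0.45 in complex II to -0.80 in complex V, while the other 3 libraries lie close to each other.

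Read numbers varied widely between members. The 80 tested members, those with a mean of at least 1 RPKM, were read 97.5 times in the median (4 libraries summed), from 1 (Cox8b) to 1800 (Atp5b). Of all 86 members, tested or not, 77 had reads in all 4 libraries. The 6 untested members were Cox6b2, Cox7b2, Cox8c and an extra Atp5o row that overlaps the first, all without a read, together with Cox7a1, with 1 read, and Atp5l, with 20 reads over a gene of 6443 bases. The standard error of a member's log2 change ranged from 0.37 to 1.16 with a median of 0.49, and that of Atp5b, the member with the most reads, was also 0.49. The 95% interval of the typical member reached 1.21 log2 units to either side. The narrowest interval reached 0.91 log2 units, and 75 of the 80 intervals held 0.

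No member passed the adjusted threshold. By limma on log2(RPKM + 1) with Benjamini-Hochberg adjustment over 11363 genes, 0 of 80 members were called at an adjusted p under 0.05, the smallest adjusted p being 0.672, and 0.106% of all tested genes were called. With limma-voom on the recovered reads, 0 of 78 members were called, against 0.425% of all genes in that fit. At an unadjusted p under 0.05, 3 members were lower (all tested genes, 4.46%) and 2 were higher (all tested genes, 2.86%), so that 3.75% and 2.50% of the members stood beside those shares. The 5 genes were Ndufa4l2, Ndufs5 and Cox4i2 on the lower side and Ndufa5 and Uqcrb on the higher side.

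The members' values nevertheless leaned upward. The log2 change was above 0 for 63 of 80 members (78.8%), with a median of 0.47, while 53.1% of tested protein-coding genes lay above 0 with a median of 0.05, and the median of all tested genes was 0.00. Both KO-labelled libraries lay above both WT libraries for 31 members (38.8%), against 20.1% of all tested genes, and below both for 8 members (10.0%), against 20.3% of all tested genes. Much of this came with WT library 1. Without it, 47 of 80 members lay above 0 (58.8%), the median was 0.088, and 34 members had both KO-labelled libraries above WT library 2 (42.5%), against 34.9% of all genes, while 24 had both below it (30.0%), against 36.1% of all genes. Without WT library 2 the median was 0.76. Leaving out KO library 1 or KO library 2 gave 0.47 either way. Single members were less steady: leaving out 1 library moved the change of 69 of 80 members (86.2%) by over 1.5 times in at least 1 of the 4 fits, as it did for 85.0% of all tested genes, so a change printed below for 1 member carries that limit. The direction held in all 4 of these fits and in the fit of all libraries for 40 members above 0 and 9 below 0. The corresponding shares were 50.0% and 11.2% of members and 29.4% and 25.3% of protein-coding genes.

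Complex V had the highest median change of the complexes, although the medians lay close together and the ranges overlapped. The median log2 change was 0.46 in complex I (37 tested, 27 above 0), 0.49 in complex II (4 tested, 3 above 0), 0.41 in complex III (9 tested, 9 above 0), 0.41 in complex IV (14 tested, 9 above 0) and 0.67 in complex V (16 tested, 15 above 0). Complex III was the one in which every member lay above 0, from 0.17 to 1.66, and without WT library 1 it was 7 of 9. Without WT library 1 the medians were 0.13, 0.22, 0.42, 0.0075 and 0.0072 for complexes I to V. The order of the complexes thus changed with 1 library, complex V going from the highest median to the level of complex IV while the median of complex III stayed near its value. Without WT library 2 the medians were 0.73, 0.62, 0.69, 0.41 and 1.29.

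**Figure D2:**
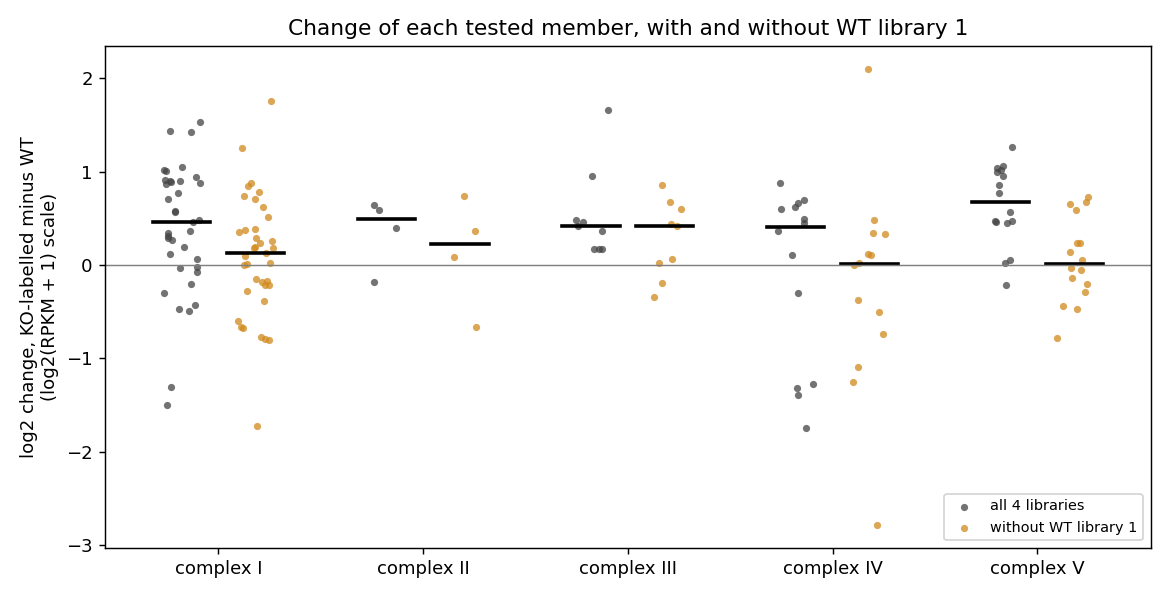
Each point is the log2 change of a tested member, KO-labelled minus WT on the log2(RPKM + 1) scale, with all 4 libraries (grey) and without WT library 1 (orange), and black bars mark medians. Complex V moves from a median of 0.67 to 0.0072 when WT library 1 is left out, whereas complex III stays at 0.41 and 0.42.

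Summed over their members, the complexes ranked I, V, IV, III and II from high to low in RPKM in each of the 4 libraries, whereas complex V stood above complex I in each library per kilobase of coding sequence. The nuclear subunits of complex I summed to 654.7 and 1029 RPKM in WT and 1051 and 1102 RPKM in the KO-labelled libraries. Those of complex II summed to 95.4 and 136.4 against 146.0 and 138.0 RPKM, and those of complex III to 208.8 and 343.0 against 346.1 and 399.6 RPKM. For complex I, complex II and complex III both KO-labelled libraries lay above both WT libraries in RPKM, WT library 2 being close to them. Complex IV summed to 442.8 and 652.8 RPKM in WT and 605.9 and 650.5 RPKM in the KO-labelled libraries and overlapped. Complex V, the ATP synthase, summed to 445.7 and 862.4 against 905.4 and 1038 RPKM and did not overlap in RPKM. In the same exact permutation test, complexes I, II, III and V each had p = 0.333, the smallest possible, and complex IV had p = 1. Other measures of level did not keep all of these gaps. Per kilobase of coding sequence, complex III (732.1 and 1274 against 1211 and 1383) and complex V (1784 and 3689 against 3663 and 4338) overlapped between the groups. As a share of protein-coding reads, complex I overlapped, at 0.195% and 0.270% in WT against 0.265% and 0.284%, with an exact permutation p of 0.667.

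Ratios between complexes within a library do not depend on how the libraries were scaled. The sum of complex IV over that of complex V was 0.994 and 0.757 in WT and 0.669 and 0.627 in the KO-labelled libraries, and complex I over complex V was 1.47 and 1.19 against 1.16 and 1.06. Complex III over complex IV was 0.471 and 0.525 in WT against 0.571 and 0.614, and complex I over complex IV was 1.48 and 1.58 against 1.73 and 1.69. Complex V and complex III were thus higher relative to complex IV under the KO label, and complex I was too, without overlap between groups. Of the 10 ratios, 5 did not overlap, each with an exact permutation p of 0.333 (adjusted over the 10 ratios, 0.667). With reads counted per kilobase of coding sequence in place of gene length, complex IV over complex V was 0.789 and 0.559 against 0.528 and 0.468, still without overlap. Complex I over complex V was 0.967 and 0.723 against 0.770 and 0.663 on that scale and overlapped, and 6 of the 10 ratios did not overlap, not all of them the same ratios as in RPKM.

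**Figure D3:**
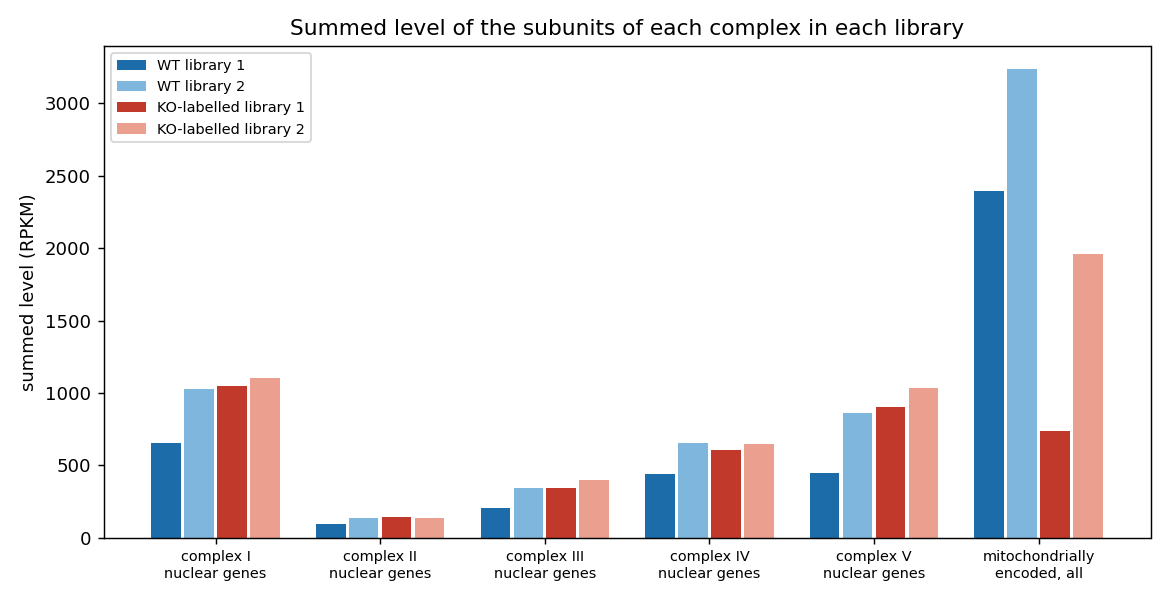
Bars show the summed RPKM of the nuclear subunits of each complex, and of all mitochondrially encoded subunits, in each of the 4 libraries. The nuclear sums of WT library 1 are the lowest of the 4 libraries in every complex, while the mitochondrially encoded sum is lowest in KO library 1, at 737.6 RPKM.

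The nuclear-encoded core subunits of complex I carry the flavin and the iron-sulfur clusters along which electrons travel. Ndufv1, which binds NADH and the flavin, had 20.2 and 26.6 RPKM in WT and 33.5 and 43.7 RPKM in the KO-labelled libraries, without overlap (log2 change 0.70 ± 0.42 SE). Its neighbour Ndufv2 had 10.8 and 16.8 RPKM in WT against 14.4 and 15.0 RPKM, within the WT range. Ndufs1, the largest subunit, which holds several iron-sulfur clusters, had 1.85 and 5.51 RPKM in WT against 9.54 and 5.51 RPKM (9, 21, 70 and 36 reads), and its gene overlaps Eef1b2 on the other strand. Ndufs8, which holds clusters on the arm towards the membrane, had 7.71 and 14.8 RPKM in WT against 25.6 and 21.1 RPKM and the highest change of these core genes, 1.05 ± 0.45 SE, which was 0.62 without WT library 1. Ndufs7, whose coding sequence began with the letters ATGGCGGC, lies near the site where ubiquinone is reduced. Ndufs7 had 46.3 and 40.8 RPKM in WT against 32.7 and 37.5 RPKM. Ndufs7 was the one nuclear-encoded core complex I gene below 0, at -0.30 ± 0.41 SE, with both KO-labelled libraries under both WT libraries. With the coding GC trend removed it was at 0.076 and Ndufv2 at -0.12. Ndufs3, a structural core subunit, lay at 6.85 and 7.80 RPKM against 10.1 and 7.96 RPKM. Over the 7 nuclear-encoded core subunits of complex I the median log2 change was 0.26, and it was 0.47 over the other 30 members. The order turned without WT library 1, at 0.18 and 0.074.

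The accessory subunits of complex I spanned the widest range of changes in the chain, from -1.31 to 1.53, or from -1.51 with Ndufa4l2 counted. Ndufa5, an accessory subunit of the matrix arm, had 8.04 and 18.5 RPKM in WT and 37.4 and 32.4 RPKM in the KO-labelled libraries (5, 9, 35 and 27 reads). Both KO values were above both WT values, a ratio of means of 2.63, with a log2 change of 1.43 ± 0.50 SE and an adjusted p of 0.672 by limma. The change was 0.88 without WT library 1. Ndufa1, a small membrane subunit encoded on the X chromosome, had the highest change of the complex, 1.53 ± 0.81 SE, from 15.8 and 81.1 RPKM in WT to 131.6 and 85.7 RPKM. The value of WT library 1 was far below the other 3, and the change without that library was 0.39. Ndufa2, the member of complex I with the highest mean level, had 78.3 and 185.5 RPKM in WT against 104.1 and 225.1 RPKM, the groups being interleaved.

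On the lower side, Ndufs5 and Ndufa4l2 had the smallest p-values of complex I. Ndufs5 (chr4:123712710-123718202, minus strand) codes for an accessory subunit on the intermembrane face and carries the proline run shown above. It had 21.2 and 9.87 RPKM in WT and 6.41 and 4.32 RPKM in the KO-labelled libraries, which is 11, 4, 5 and 3 reads. The groups did not overlap in RPKM, although the read numbers did, and the log2 change was -1.31 ± 0.49 SE (adjusted p 0.672 by limma), or -0.79 without WT library 1. Ndufa4l2 (chr10:127514967-127517154, plus strand), a paralog of Ndufa4 known as a target of hypoxia signalling, had 19.7 and 27.1 RPKM in WT and 12.1 and 4.52 RPKM in the KO-labelled libraries, with 13, 14, 12 and 4 reads. Its log2 change was -1.51 ± 0.53 SE (adjusted p 0.672 by limma), and without KO library 2 it was -0.88. Its gene overlaps Shmt2 on the other strand. Ndufa4 itself had 20.4 and 29.2 RPKM in WT against 45.5 and 26.0 RPKM, so the paralogs did not share a direction in these means.

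The 6 tested members with a proline run, all of complex I, lay lower than the rest. These values are reads over whole genes without the RNA level beside them. A change in translation and one in RNA therefore cannot be told apart, and reads at the runs themselves were not examined. The log2 change was -1.31 for Ndufs5, -0.47 for Ndufa7, -0.43 for Ndufv3, -0.08 for Ndufa13 and 0.88 for Ndufc2. Over the 6, the counts were 4 of 6 below 0 with a median of -0.25, against 13 of the other 74 members below 0 with a median of 0.47. Over all tested protein-coding genes, the 2540 with such a run had a median of -0.13 and the 7329 others one of 0.12. Genes with a run were also richer in GC in both sets: the median coding GC was 54.9% against 53.4% among the members and 55.4% against 52.5% among all. After removal of the coding GC trend, the members with a run had a median of -0.07 with 3 of 6 below 0, against 0.46 for the others. Without WT library 1 the medians were -0.15 and 0.10. The part of GC in the members' values was not tested further. The 14 members opening with ATGGCGGC had a median change of 0.33, against 0.47 for the 66 others, an order that turned without WT library 1 (0.15 against 0.037) and nearly vanished with the GC trend removed (0.43 against 0.44), and in all protein-coding genes the medians were 0.18 for 409 genes with these letters and 0.04 for the rest.

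Complex II, succinate dehydrogenase, belongs to both the citric acid cycle and the respiratory chain and is made from nuclear genes alone. Sdha, the flavin subunit that oxidises succinate, had 13.7 and 19.0 RPKM in WT and 35.8 and 17.1 RPKM in the KO-labelled libraries. Its high mean under KO came from KO library 1. Sdhb, the iron-sulfur subunit, had 34.1 and 29.4 RPKM in WT against 45.3 and 54.7 RPKM and did not overlap (log2 change 0.64 ± 0.41 SE). Of the membrane anchors, Sdhc had 15.3 and 24.2 RPKM against 25.4 and 25.9 RPKM, and Sdhd had 32.3 and 63.8 RPKM against 39.4 and 40.2 RPKM. The change of Sdhd was -0.19, and it turned to 0.29 when WT library 2 was left out and to 0.025 with the coding GC trend removed. Per kilobase of coding sequence, where these subunits can be compared, the mean levels over the 4 libraries were 44.3 for Sdha, 108.2 for Sdhb, 145.6 for Sdhc and 113.4 for Sdhd, although each is present once in the complex.

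Complex III hands electrons from ubiquinol to cytochrome c. Uqcrb (chr13:66900617-66905378, minus strand), a small subunit near the ubiquinone site, had the highest change of all tested members. It had 5.68 and 19.4 RPKM in WT and 37.8 and 33.9 RPKM in the KO-labelled libraries (3, 8, 30 and 24 reads), a ratio of means of 2.86. Both KO values were above both WT values, at a log2 change of 1.66 ± 0.60 SE (adjusted p 0.672 by limma). Without WT library 1 it was 0.85. The gene overlaps Gm10767 on the other strand. Of the catalytic subunits, Cyc1, cytochrome c1, had 24.6 and 16.8 RPKM in WT against 26.6 and 28.2 RPKM, and Uqcrfs1, the Rieske iron-sulfur protein, had 18.3 and 34.3 RPKM against 28.3 and 42.7 RPKM. The log2 changes were 0.41 ± 0.41 SE for Cyc1, without overlap, and 0.46 ± 0.49 SE for Uqcrfs1, which overlapped. Cyc1 stood at 0.15 and Uqcrfs1 at 0.89 when WT library 2 was left out, and at 0.68 and 0.021 when WT library 1 was. Uqcrc1, a core protein on the matrix side, lay between 18.1 and 24.5 RPKM in all 4 libraries. Uqcr11, the smallest subunit and the one with the highest level of complex III, had 59.5 and 152.3 RPKM in WT against 106.6 and 166.1 RPKM, with the groups interleaved.

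Complex IV, cytochrome c oxidase, has isoforms of several nuclear subunits, and the libraries read mainly the forms that most tissues use. Cox4i1 had 36.4 and 58.9 RPKM in WT and 66.9 and 82.3 RPKM in the KO-labelled libraries, without overlap (log2 change 0.67 ± 0.47 SE, and 0.33 without WT library 1), and its gene overlaps Gm20388 on the same strand. Cox4i2, the isoform known from lung and low oxygen, had 3, 1, 1 and 0 reads, at or under the floor of 3 reads in every library, so no fold is given although its limma unadjusted p was 0.039. Cox5a had 7.11 and 22.2 RPKM in WT against 20.99 and 27.7 RPKM, and Cox5b 12.5 and 17.4 RPKM against 21.5 and 28.1 RPKM. Both are structural subunits without isoforms in this list, and Cox5b alone did not overlap between the groups.

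The isoforms of heart and skeletal muscle were barely read. Cox6a2 had 2 reads in WT library 1 and none elsewhere, Cox7a1 had 1 read in WT library 1 and none elsewhere, and Cox8b had 1 read in WT library 2 and none elsewhere. Their counterparts in other tissues were among the highest members. Cox6a1 had 104.0 and 148.2 RPKM in WT against 155.5 and 164.0 RPKM, Cox7a2 had 31.6 and 107.9 RPKM against 80.6 and 85.2 RPKM, and Cox8a had 120.6 and 161.2 RPKM against 110.4 and 116.0 RPKM. Cox8a was the one of these with both KO-labelled libraries below both WT libraries, at -0.30 ± 0.46 SE, at -0.51 and -0.091 without WT library 1 and WT library 2, and at 0.21 with the coding GC trend removed. Cox6b1 had 60.9 and 89.9 RPKM in WT against 112.1 and 117.2 RPKM, while Cox6b2, known from testis, was at 0. Cox7b had 1, 11, 11 and 7 reads and Cox7b2 none. The fitted changes of Cox6a2 and Cox8b rested on 2 reads and 1 read, and among members with at least 20 reads the median change of complex IV was 0.49.

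Cox7a2l, which differs from Cox7a2 in function despite the shared name and joins complex III to complex IV, lay apart from the other genes of its family. It had 26.9 and 11.5 RPKM in WT and 4.48 and 9.21 RPKM in the KO-labelled libraries, with 24, 8, 6 and 11 reads. The groups did not overlap in RPKM, WT library 1 being the highest, and the log2 change was -1.32 ± 0.56 SE (adjusted p 0.675 by limma). Without WT library 1 it was -0.74.

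**Figure D4:**
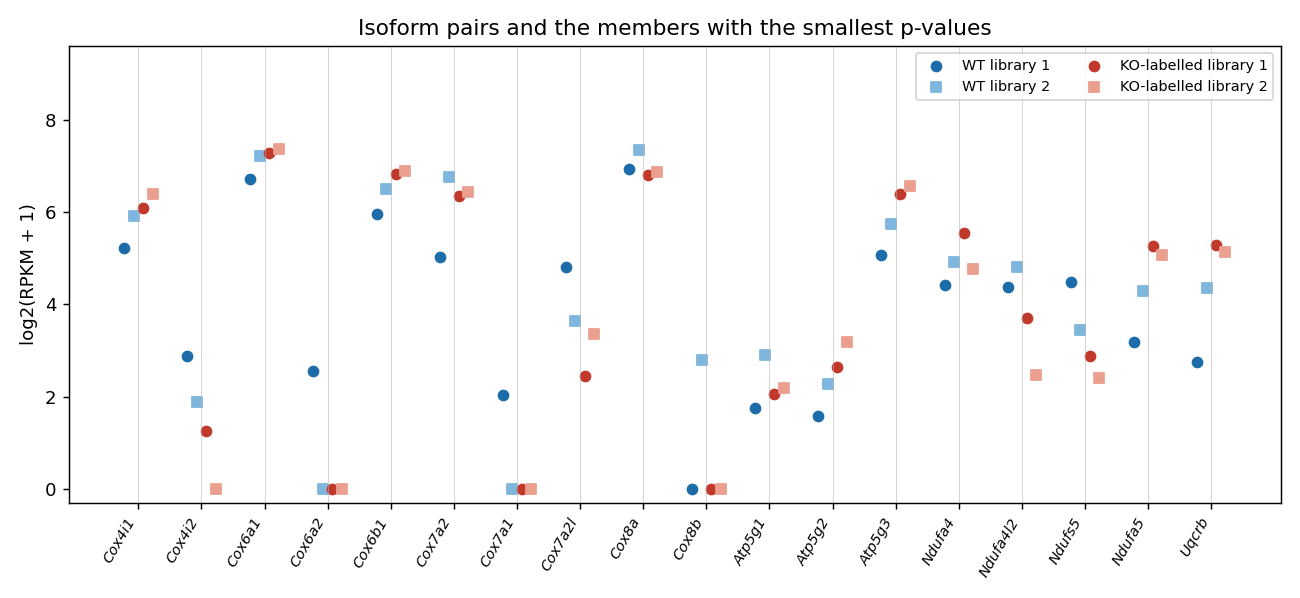
Points show log2(RPKM + 1) in each of the 4 libraries for isoform pairs of complexes IV and V, for Ndufa4 and its paralog, and for the members with the smallest p-values. The muscle forms Cox6a2, Cox7a1 and Cox8b rise above 0 in 1 library each, while Ndufa5 and Uqcrb are lowest in WT library 1.

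Complex V held the 2 members with the highest mean RPKM. Its catalytic head is built from the alpha and beta subunits around a central stalk. Atp5a1, the alpha subunit, had 95.8 and 142.2 RPKM in WT and 242.0 and 212.9 RPKM in the KO-labelled libraries (181, 210, 688 and 539 reads). These groups did not overlap, a ratio of means of 1.91, with a log2 change of 0.95 ± 0.49 SE (adjusted p 0.680 by limma). The gene overlaps Haus1 on the other strand. Atp5b, the catalytic beta subunit and the member with the most reads, had 97.9 and 154.8 RPKM in WT against 168.1 and 173.9 RPKM, without overlap, at 0.47 ± 0.49 SE, and at 0.14 without WT library 1. The central stalk subunit Atp5c1 had 15.6 and 63.4 RPKM in WT against 52.0 and 57.8 RPKM, and its change went from 0.77 to -0.21 when WT library 1 was left out. The stalk subunits Atp5d and Atp5e were also lowest in WT library 1: Atp5d had 108.4 and 167.3 RPKM in WT against 113.8 and 163.8 RPKM, and Atp5e had 7.56 and 59.2 RPKM against 51.5 and 55.7 RPKM. Over the 5 subunits of the head and central stalk the median change was 0.77, and -0.14 without WT library 1.

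The c subunits of complex V, which form the ring that turns in the membrane, are made from a set of genes that encode the same mature protein. Atp5g3 was the most strongly read, with 32.7 and 52.6 RPKM in WT and 82.9 and 93.1 RPKM in the KO-labelled libraries. Atp5g2 had 1.98 and 3.80 RPKM in WT against 5.27 and 8.13 RPKM. These were 2, 3, 8 and 11 reads, both WT libraries being at or under the floor of 3 reads. Atp5g1 had 2.36 and 6.48 RPKM in WT against 3.14 and 3.53 RPKM. Atp5g2 and Atp5g3 did not overlap between the groups, at 1.00 ± 0.44 SE and 1.06 ± 0.46 SE. Atp5g1 was interleaved, at -0.21 ± 0.49 SE, the one tested member of complex V below 0 with all 4 libraries, and at 0.36 without WT library 2. Without WT library 1, Atp5g2 and Atp5g3 stood at 0.66 and 0.73. The mean level of Atp5g3 per kilobase of coding sequence was 336.8, against 46.7 for Atp5g1 and 18.3 for Atp5g2.

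The reads of the subunits made inside mitochondria lay on the other side of 0. Whether these reads come from translating mitochondrial ribosomes was not tested, so they may not measure the same thing as those of the nuclear genes. Of 13 mitochondrially encoded subunits, 4 were listed at 0 throughout (mt-Nd4l, mt-Atp6, mt-Co3 and mt-Co2), which is not read as absence. All 9 that were tested lay below 0, with a median log2 change of -1.26. None was called at an adjusted p under 0.05 (all tested genes, 0.106%), and 3 of the 9 were lower at an unadjusted p under 0.05 (all tested genes, 4.46%). mt-Nd2, a membrane subunit of complex I, had 91.1 and 137.0 RPKM in WT and 29.7 and 40.6 RPKM in the KO-labelled libraries (-1.66 ± 0.47 SE). mt-Co1, the catalytic subunit of complex IV, had 519.6 and 436.9 RPKM against 111.3 and 181.1 RPKM (-1.74 ± 0.53 SE), and mt-Cytb of complex III had 261.0 and 363.7 RPKM against 89.6 and 153.7 RPKM (-1.38 ± 0.54 SE). The groups did not overlap for these genes. Without KO library 1, in which all 9 were lowest, the median was -0.65. Within a library, the nuclear members summed to 0.772 and 0.935 times the mitochondrially encoded sum in WT and to 4.14 and 1.70 times in the KO-labelled libraries. For complex I the ratio was 0.414 and 0.473 in WT against 2.04 and 0.708, for complex III 0.800 and 0.943 against 3.86 and 2.60, and for complex IV 0.852 and 1.49 against 5.44 and 3.59. The ratio was higher in both KO-labelled libraries in each of these complexes, without a test.

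The other genes of the pathway lay on both sides of 0. Of 50 assembly factors, which build the complexes without remaining in them, 41 were tested and 27 lay above 0 (65.9%, against 53.1% of protein-coding genes), with a range from -1.10 to 1.54 and a median of 0.19. With WT library 1 left out, 21 of the 41 lay above 0 and the median was 0.015. None was called at the adjusted threshold, and 1 was lower at an unadjusted p under 0.05 (2.44%, against 4.46% of all tested genes). That gene was Tmem186, a complex I assembly factor, with 4.40 and 3.76 RPKM in WT and 0.98 and 1.83 RPKM in the KO-labelled libraries (9, 6, 3 and 5 reads). Of 17 genes of electron carriers and quinone synthesis, 14 were tested, with a median of 0.01 and 8 above 0, and the median was -0.20 without KO library 1. Of 15 regulators of mitochondrial genes, 11 were tested, with a range from -0.50 to 0.99, a median of 0.12 and 6 above 0, and the median was -0.056 without KO library 1. Both KO-labelled libraries lay above both WT libraries for 4 of these 11 regulators and below both for 2, against 20.1% and 20.3% of all tested genes. Neither list had a gene at an unadjusted p under 0.05. Subunits that the name rule did not reach, Ndufab1 (10, 3, 13 and 9 reads) and the inhibitor of complex V, Atpif1 (10, 17, 27 and 30 reads), had log2 changes of 0.15 and 0.42.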

How the data were processed

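Ribosome-protected RNA was sequenced in 4 libraries of primary mouse myoblasts, 2 labelled WT and 2 labelled eIF5A-KO in the sample titles, which call the assay Polysome-Seq although the extraction text describes ribosome profiling. According to the study's methods and the submitters' processing notes, low-quality, rRNA and tRNA reads were removed, reads were mapped with TopHat2 to mm10 with the Ensembl 97 annotation and counted with HTSeq; strand use is not given in the sources used here. The authors deposited RPKM values per gene and library, scaled by gene length and by their own library size. RPKM times length gave whole multiples of 1 step for 100% of values above 0 (tolerance 0.01 reads), so reads were recovered, 642429 to 704006 a library. The length in RPKM is that of the whole gene with untranslated regions, so long-tailed genes are understated. Counting error is all that the intervals of the read shares and the 3-read floor cover, whereas the intervals of log2 changes rest on the limma standard errors.

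Changes were tested with limma 3.58.1 in R 4.3.3 (lmFit, then eBayes with an intensity trend) for genes averaging 1 RPKM or more, as log2(RPKM + 1), with Benjamini-Hochberg adjustment over 11363 genes. On this scale the change of weakly read genes is understated. Ratios of summed levels were compared by exact permutation. Coding sequences were the longest complete one of each gene in GENCODE M21 (GRCm38), in which all 86 members had the table's coordinates. Scripts were tested on simulated data.

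The members and gene lists were chosen with earlier results of these data known. Named members were the highest of each complex, the core subunits, those at an unadjusted p under 0.05, the isoform families, and the 3 lowest and 3 highest changes among members averaging 5 RPKM or more. Partner genes were named at an unadjusted p under 0.05, at most 5 a list, apart from the 2 subunits that the name rule missed. Genes outside this rule (Atp5d, Atp5e, Ndufa4, the proline-run members and those at few reads) were named after their values were seen. One item is not reported here.

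The following settings were also tried: pseudocount 0.1, all genes above 0, genes averaging 5 RPKM or more, at least 20 reads, scaling to the same sum over all or over protein-coding genes, removal of the coding GC trend, limma-voom on the recovered reads, the replicate number as a block, leaving out each library, Ndufa4 moved to complex IV without the non-subunits, and reads per kilobase of coding sequence. Removal of the coding length trend was added after seeing the data.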

Additional observations from a re-analysis of the deposited data

How the results depend on the processing

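In every setting that was fitted, 0 members were called at an adjusted p under 0.05, and the medians of all members and of every complex stayed above 0. Reads per kilobase of coding sequence were used for levels, sums and ratios only, without a fit. The members at an unadjusted p under 0.05 on the higher side numbered 4 with at least 20 reads (5.19% of members, 4.04% of all genes in that fit), 7 with the coding GC trend removed (8.75% and 3.67%), 5 with the coding length trend removed (6.25% and 4.42%), 5 with every gene above 0 (6.10% and 2.13%), 6 with limma-voom (7.69% and 3.10%) and 4 with the replicate block (5.00% and 2.80%), against 2 in the report. The replicate numbers pair the libraries in name only (correlation of same-numbered deviations 0.06, 2 pairs), and the replicate block changed no adjusted call. Scaling to the same sum over all genes moved the median of all genes to 0.49, of all members to 1.06, and of complexes I to V to 0.99, 1.08, 1.00, 0.99 and 1.16. At an unadjusted p under 0.05 it put 0 of 81 members on the lower side (all genes, 1.48%) and 32 on the higher side (39.5%, against 14.7% of all genes, which themselves leaned upward), and the members' median lay above that of all genes under either scaling. The median of all tested genes was 0.033 with at least 20 reads, 0.036 and 0.054 with the GC and length trends removed, 0.022 with every gene above 0, -0.0087 with limma-voom, 0.067 with a mean of at least 5 RPKM, 0.016 with a pseudocount of 0.1 and -0.093 when protein-coding reads were scaled to 1 sum.

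Leaving out each library in turn gave 0 to 2 members on the lower and 0 to 21 on the higher side. The counts of 0 came without KO library 2 (all genes, 2.82% lower and 2.36% higher) and the 21 without WT library 2 (26.2% of members, against 7.12% of all genes). The median change ranged from 0.088 to 0.76 for all members, from 0.13 to 0.73 for complex I, from 0.22 to 0.62 for complex II, from 0.37 to 0.69 for complex III, from 0.0075 to 0.41 for complex IV and from 0.0072 to 1.29 for complex V. The log2 ratio of summed levels ranged from 0.065 to 0.72 for complex I, from 0.058 to 0.57 for complex II, from 0.12 to 0.84 for complex III, from -0.055 to 0.50 for complex IV and from 0.17 to 1.12 for complex V, the lowest values without WT library 1 and the highest without WT library 2. Of 39 named members with a fit, 7 changed sign without WT library 1, 3 without WT library 2, 4 with the GC trend removed and 4 with the same sum over all genes. The cause was not tested.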

Other observations

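Outside the protein-coding genes, 12 rows matched the naming rule, and 11 of them had no read. The other, Ndufb1-ps, annotated as a long noncoding RNA, had 6 and 23 reads in WT and 32 and 70 reads in the KO-labelled libraries. It carries the name of Ndufb1, which is not among the members. Of the 86 members, 27 overlapped another protein-coding gene on either strand, and because the use of strand in counting is not given in the sources used here, reads of such pairs could not be separated. These include members for which no overlap is stated above. Members whose gene is much longer than its coding sequence had low RPKM beside their reads per kilobase of coding sequence. Ndufb2, an accessory subunit of complex I, has a gene length of 5628 bases and 315 coding bases. Its mean over the 4 libraries was 1.35 RPKM, against 24.2 per kilobase of coding sequence. It had 2 and 0 reads in WT and 10 and 13 reads in the KO-labelled libraries. The gene overlaps Braf on the other strand and Gm42420 on the same strand.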
